A study of Homo sapiens with 12 samples.

Results

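The genes described here are 49 genes of glycolysis and of the hypoxia-inducible factor (HIF) response, listed by pathway membership, with earlier results of these data known, out of 58288 gene IDs in the deposited count table. They comprise 6 HIF factors and their regulators, 3 glucose transporters, 15 glycolytic enzymes, 3 PFKFB enzymes, 8 genes that handle lactate and pyruvate, and 14 other known HIF targets. RNA was sequenced from HK2 cells, an immortalised line from human kidney proximal tubule, in nontarget and FLCN knockdown cells, each cultured for a short or a long term, with 3 libraries in each of the 4 groups. Nontarget cells (shControl, labelled WT) carried a nontargeting shRNA and knockdown cells an shRNA against FLCN, whose protein folliculin is lost in Birt-Hogg-Dubé syndrome, and all cells grew in DMEM with fetal bovine serum. Short-term cells had grown for fewer than 30 passages and long-term cells for more than 120, by the labels; the study's methods give a lower limit for the long term. The lines were stable clones selected after shRNA delivery, and the sources used here do not state which clone each library came from, so clone and group cannot be told apart. The labels number biological replicates 1 to 3 without saying what separates them, so p-values measure the spread between these libraries.

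Libraries held 5825779 to 8991051 counts. FLCN itself was measured at 12.7, 16.7 and 16.5 CPM (counts per 1000000 library counts, with library sizes scaled by TMM factors) in short-term nontarget libraries, at 5.95, 6.58 and 5.66 CPM with short-term knockdown, at 9.92, 11.9 and 12.2 CPM in long-term nontarget libraries, and at 6.70, 6.31 and 7.97 CPM with long-term knockdown. It was lower in every knockdown library than in every nontarget library of the same culture time, by 60.2% in short-term (adjusted p = 0.000112) and 38.5% in long-term cells (adjusted p = 0.00611, edgeR). Of 12 proximal tubule markers, 4 had enough counts to be tested, and LRP2, SLC22A6 and SLC22A8 had no count in any library, so the labelled cell type rests on few of its defining genes. The summed level of these 12 markers was 249 to 283 CPM in short-term nontarget, 339 to 363 CPM in short-term knockdown, 308 to 366 CPM in long-term nontarget and 312 to 357 CPM in long-term knockdown libraries, and its part in the results below was not tested. Of the 4 tested, GGT1, MME and PAX8 were called higher with short-term knockdown, and with long-term knockdown GGT1 and MME were higher and PAX8 was lower. In the interaction of knockdown and time described below MME was higher (log2 difference 0.69) and PAX8 lower (-0.94). Between short-term and long-term cells MME was lower (-0.48) and PAX8 higher (0.63) in nontarget cells, and PAX8 was lower (-0.31) in knockdown cells. Epithelial markers were present (4 of 5 tested); EPCAM was called lower with long-term knockdown (log2 fold change -0.59, adjusted p = 0.0237), and EPCAM and KRT18 were lower in the interaction described below (-1.11 and -0.54). Markers of other kidney cell types summed to at most 0.708 CPM, and those of fibroblasts, endothelium and blood to 13.9 to 41.2 CPM, with PTPRC and CD3E at 0. PDGFRB, a marker of the last list, was called lower with long-term knockdown (7.41 to 0.658 CPM, log2 fold change -3.56, adjusted p = 1e-05) and in the interaction (-2.64). Between short-term and long-term cells the epithelial keratin KRT19 was lower in both nontarget (log2 fold change -2.70) and knockdown cells (-2.99), KRT18 was higher in nontarget cells (0.44), and EPCAM (-1.31) and PDGFRB (-1.74) were lower in knockdown cells. The part of these markers in the results was not tested. In RNA from whole cultures, fewer cells of a type and less RNA per cell cannot be told apart.

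HIF is a transcription factor made of an oxygen-labile alpha subunit (HIF1A or EPAS1) and the stable subunit ARNT. At normal oxygen the EGLN enzymes hydroxylate the alpha subunit and the VHL complex marks it for degradation, so HIF activity is set largely through protein stability. When stable, HIF binds a short core motif near its targets and raises genes of glucose uptake, glycolysis, lactate export, angiogenesis and mitophagy; loss of VHL in clear cell kidney cancer leaves it permanently active.

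Of the 49 genes, 45 had enough counts to be tested, and ALDOC, CA9, CA12 and SLC2A2 did not. A gene was called at an adjusted p below 0.05 (edgeR quasi-likelihood test, two-sided, Benjamini-Hochberg over 13959 genes). With short-term knockdown 14 of the 45 members tested rose (31.1%) and 1 fell (2.22%), beside 5.62% higher and 4.71% lower among all genes tested. With long-term knockdown 10 rose (22.2%) and 10 fell (22.2%), beside 13.7% higher and 15.8% lower among all genes. The median log2 fold change of the members was 0.21 in short-term and 0.02 in long-term cells, and that of all genes was 0.00 at both times. At the study's limit of a 2.5-fold change, 1 member was called at each time, NDRG1 in short-term cells (background 1.79% of genes in either direction) and ADM in long-term cells (background 6.61%). Both knockdown comparisons have their own control libraries. The count of members that rose in long-term cells went from 10 to 6 without long-term FLCN knockdown replicate 1, and also to 6 without long-term nontarget replicate 2. Among all genes those that rose went from 1909 to 1483 and 1482 in these fits.

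**Figure D1:**
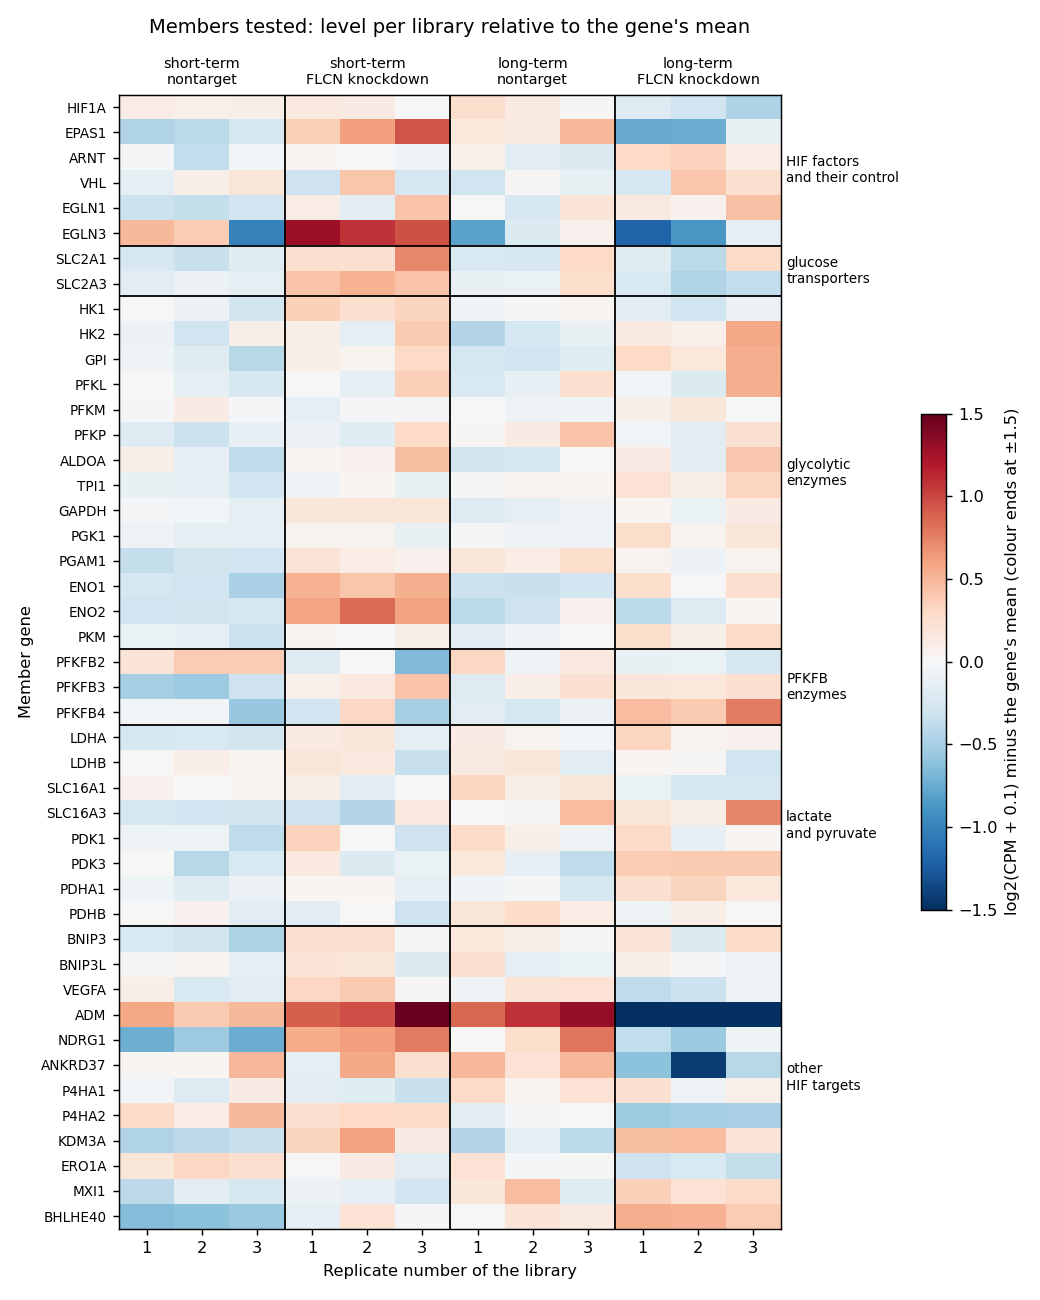
Heat map of the 45 members tested (rows, grouped by role) in the 12 libraries (columns, 3 per group); colour is log2(CPM + 0.1) minus the gene's mean over all libraries, red above and blue below it. ADM was darkest blue in the 3 long-term knockdown libraries, where its level was 1.03 to 1.19 CPM.

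Calls differed in pattern over the 2 culture times. BHLHE40, ENO1 and KDM3A rose at both. ADM, EPAS1, NDRG1 and SLC2A3 rose in short-term and fell in long-term cells. BNIP3, EGLN3, ENO2, HK1, PFKFB3, PGAM1 and SLC2A1 rose in short-term cells and were not called in long-term cells, whereas ARNT, GPI, the hexokinase gene HK2, PDHA1, PDK3, PFKFB4 and PKM were called higher in long-term cells and not in short-term cells. ANKRD37, ERO1A, HIF1A, P4HA2, SLC16A1 and VEGFA fell in long-term cells and were not called in short-term cells, and PFKFB2 fell in short-term cells and was not called in long-term cells. Whether the effect differed between times was tested separately, below. In all, 13 members were called by edgeR in none of the 5 comparisons made: ALDOA, BNIP3L, EGLN1, GAPDH, LDHA, LDHB, PDHB, PDK1, PFKL, PFKM, PFKP, PGK1 and VHL. All genes called in none were not counted, so this number is not a result about the members. DESeq2 called EGLN1, GAPDH and LDHA higher in short-term and PGK1 higher in long-term cells.

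**Figure D2:**
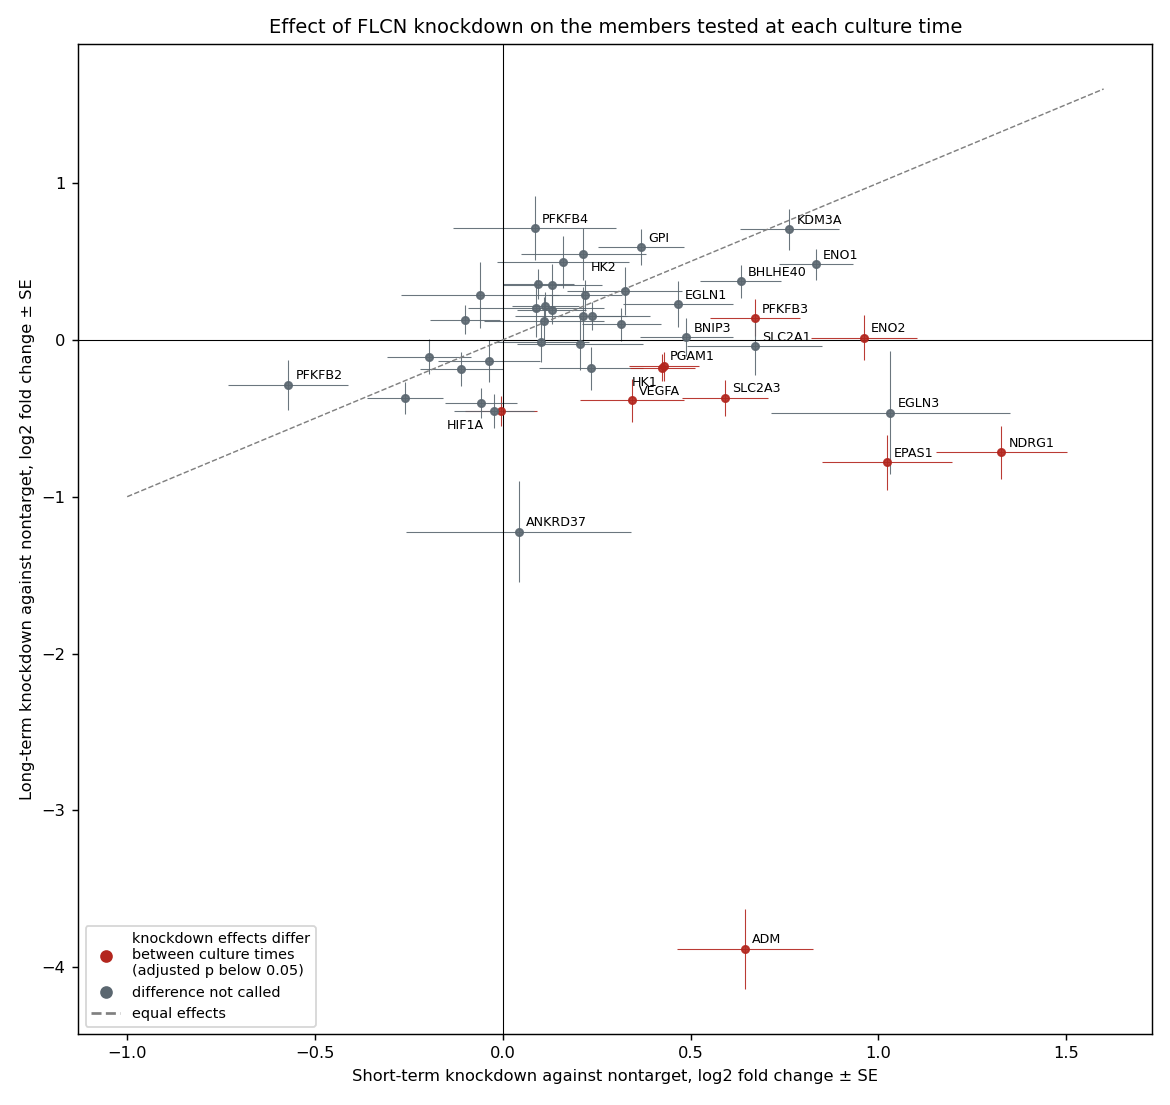
Log2 fold change (± SE) of each member tested after short-term knockdown (x axis) and long-term knockdown (y axis), each against nontarget cells of the same time; red points are the 10 members whose effects differed between times, and the dashed line marks equal effects. All 10 red points lie below the line, with ADM lowest at a long-term value of -3.88.

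Among the HIF subunits, HIF1A (chr14:61695513-61748259 in GENCODE 29 on GRCh38, + strand) was measured at 679, 664 and 671 CPM in short-term nontarget libraries and at 697, 683 and 627 CPM with short-term knockdown. In long-term cells it was at 753, 690 and 638 CPM in nontarget and at 551, 510 and 455 CPM in knockdown libraries. The short-term groups overlapped, and each long-term knockdown library was below all 9 others. Its log2 fold change was -0.00 (SE 0.10, adjusted p = 0.987) in short-term and -0.46 (SE 0.10, adjusted p = 0.00148) in long-term cells. HIF1A overlaps 2 antisense genes, HIF1A-AS1 and HIF1A-AS2, whose reads cannot be told apart from its own if strand was not used in counting.

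EPAS1, which encodes HIF-2 alpha (chr2:46293667-46386703, + strand), was at 299, 309 and 345 CPM in short-term nontarget and 523, 627 and 786 CPM in short-term knockdown libraries. In long-term cells the order turned, with 455, 451 and 578 CPM in nontarget and 242, 245 and 378 CPM in knockdown libraries. Neither pair of groups overlapped, and the library numbered 3 was the highest in all 4 groups. EPAS1 rose 2.03-fold in short-term cells (log2 fold change 1.02, SE 0.17, adjusted p = 0.00125) and fell in long-term cells (log2 fold change -0.78, SE 0.17, adjusted p = 0.00288). For the 40 tested genes nearest to EPAS1 the median log2 fold change was 0.27 in short-term and 0.40 in long-term cells, so its long-term fall was against the direction of its neighbours.

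ARNT, the shared beta subunit, was at 28.6, 22.6 and 28.4 CPM in short-term nontarget, 29.7, 29.4 and 28.1 CPM in short-term knockdown, 30.8, 26.2 and 25.1 CPM in long-term nontarget and 36.1, 37.1 and 31.5 CPM in long-term knockdown libraries. Only the long-term groups were apart. It rose there by 0.35 on the log2 scale (SE 0.13, adjusted p = 0.0494), a call lost without long-term FLCN knockdown replicate 1 or 2 or long-term nontarget replicate 2 or 3 (adjusted p 0.140 to 0.167) and under DESeq2 (0.0687).

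VHL, the recognition subunit of the ligase that degrades the alpha subunits, was at 11.9, 14.0 and 14.8 CPM in short-term nontarget, 10.5, 17.4 and 11 CPM in short-term knockdown, 10.6, 13.2 and 12 CPM in long-term nontarget and 11, 17.5 and 15.4 CPM in long-term knockdown libraries. The groups overlapped at both times and VHL was not called (log2 fold changes -0.06 and 0.29, SE 0.21 each). EGLN1, the main oxygen-sensing hydroxylase, averaged 63.3 CPM in short-term nontarget and 87.6 CPM in short-term knockdown libraries (log2 fold change 0.47, SE 0.15, adjusted p = 0.0523) and was not called at either time by edgeR, while DESeq2 called it higher in short-term cells (adjusted p = 0.0400).

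EGLN3, a hydroxylase that is itself induced by HIF, was at 5.06, 4.71 and 1.73 CPM in short-term nontarget and 8.86, 7.75 and 7.08 CPM in short-term knockdown libraries. Its long-term levels were 2.01, 3.10 and 3.75 CPM in nontarget and 1.5, 1.91 and 3.22 CPM in knockdown libraries. The short-term groups were apart and the long-term groups overlapped. EGLN3 rose 2.05-fold in short-term cells (log2 fold change 1.03, SE 0.32, adjusted p = 0.0465); the call was lost without short-term FLCN knockdown replicate 1 or 2 or any of the 3 short-term nontarget replicates (adjusted p 0.0520 to 0.181) and under DESeq2 (0.0648). Between short-term and long-term knockdown cells it fell by 1.88 on the log2 scale (SE 0.35, adjusted p = 0.000581), while its 40 neighbours on chromosome 14 had a median of -0.51; the part of the neighbourhood in the result was not tested. EGLN3 rests on 351 counts over all libraries and overlaps SPTSSA.

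SLC2A1, the basal glucose transporter GLUT1, was at 321, 299 and 334 CPM in short-term nontarget and 448, 448 and 623 CPM in short-term knockdown libraries, which did not overlap. Its long-term groups overlapped, with 324, 321 and 467 CPM in nontarget and 334, 287 and 461 CPM in knockdown libraries, and the library numbered 3 was again the highest of each group. SLC2A1 rose 1.59-fold in short-term cells (log2 fold change 0.67, SE 0.18, adjusted p = 0.026), a call lost without short-term FLCN knockdown replicate 3 or any 1 short-term nontarget replicate (adjusted p 0.0584 to 0.10). Its long-term log2 fold change was -0.04 (SE 0.18, adjusted p = 0.894).

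SLC2A3, the high-affinity transporter GLUT3 (chr12:7919230-7936275, - strand), was at 48.9, 52.1 and 50.4 CPM in short-term nontarget and 74.4, 79.4 and 74.5 CPM in short-term knockdown libraries. In long-term cells it was at 50.9, 51.6 and 66.1 CPM in nontarget and 47.1, 40.5 and 42.7 CPM in knockdown libraries. The knockdown libraries were thus all above nontarget in short-term and all below in long-term cells. The log2 fold changes were 0.59 (SE 0.11, adjusted p = 0.00258) and -0.37 (SE 0.12, adjusted p = 0.0223); the second was lost without long-term FLCN knockdown replicate 2 (adjusted p = 0.0847) or long-term nontarget replicate 3 (log2 fold change -0.24, adjusted p = 0.132), and when the libraries numbered 3 were all left out (0.152), an alternative chosen after seeing the data.

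SLC2A2, the low-affinity transporter GLUT2 of liver and kidney tubule (chr3:170996348-171026750, - strand), had 46 counts in all libraries together and did not pass the filter. It was at 0.137, 0 and 0 CPM in short-term nontarget, 0.380, 0.585 and 0 CPM in short-term knockdown, 0, 0 and 0.259 CPM in long-term nontarget and 1.62, 2.05 and 1.36 CPM in long-term knockdown libraries. Each long-term knockdown library was above all other libraries. The long-term groups held 36 counts with knockdown and 2 without, a ratio of 18.2 per total count (exact 95% interval 4.70 to 156, counting error only), and a fit with no filter on low counts gave a log2 fold change of 3.95 (SE 0.85, adjusted p = 5.46e-05; DESeq2 0.00724). The short-term groups held 7 and 1 counts (ratio 6.96, interval 0.894 to 314). Per kilobase of exon, SLC2A2 made up 0.6% of the summed level of these 3 transporters in long-term knockdown cells, against 90.7% for SLC2A1.

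The glycolytic enzymes spanned a wide range of levels. Averaged over all libraries, per kilobase of exon, GAPDH was at 1907 CPM, ENO1 at 782.4 CPM, TPI1 at 570.4 CPM and PKM at 503.7 CPM, while ENO2 was at 10.1 CPM and the hexokinase gene HK2 at 5.46 CPM. Of the 14 tested, 4 rose with short-term knockdown (HK1, PGAM1, ENO1 and ENO2) and 4 with long-term knockdown (HK2, GPI, ENO1 and PKM). That is 28.6% at each time, beside 5.62% of all genes in short-term and 13.7% in long-term cells. In edgeR 0 fell at either time (4.71% and 15.8% of all genes), with 0 at an unadjusted p below 0.05 and 0 by DESeq2. The median log2 fold change of these enzymes was 0.24 in short-term and 0.17 in long-term cells, with ranges of -0.10 to 0.96 and -0.18 to 0.59.

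ENO1, the widespread enolase that makes phosphoenolpyruvate, was at 3346, 3251 and 2867 CPM in short-term nontarget and 5726, 5348 and 5801 CPM in short-term knockdown libraries. Its long-term levels were 3209, 3181 and 3289 CPM in nontarget and 4789, 4007 and 4722 CPM in knockdown libraries. Every knockdown library was above every nontarget library. ENO1 rose 1.78-fold in short-term cells (log2 fold change 0.83, SE 0.10, adjusted p = 3.4e-05) and by 0.48 on the log2 scale in long-term cells (SE 0.10, adjusted p = 0.00119). ENO2, the neuronal enolase, averaged 34.2 ± 0.548 CPM in short-term nontarget and 66.5 ± 6.96 CPM in short-term knockdown libraries (SD, n = 3). It rose there by 0.96 on the log2 scale (SE 0.14, adjusted p = 0.000237). In long-term cells ENO2 averaged 35.9 and 36.4 CPM, with a log2 fold change of 0.01 (SE 0.14).

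At the entry of the pathway, HK1 averaged 271 ± 25.7 CPM in short-term nontarget and 365 ± 14.6 CPM in short-term knockdown libraries (SD, n = 3), and rose by 0.43 (log2, SE 0.09, adjusted p = 0.00627). In long-term cells its means were 292 and 260 CPM and it was not called. The other hexokinase gene, HK2, averaged 26.9 ± 3.08 CPM in long-term nontarget and 39.5 ± 7.99 CPM in long-term knockdown libraries and rose by 0.55 (log2, SE 0.17, adjusted p = 0.0189), while its 40 neighbours on chromosome 2 had a median of 0.48, whose part in the result was not tested. That call was lost without long-term FLCN knockdown replicate 3 or long-term nontarget replicate 1 or 2 (adjusted p 0.0586 to 0.0894). GPI, which interconverts glucose and fructose phosphates, rose by 0.59 in long-term cells (SE 0.11, adjusted p = 0.000796) from 240 ± 10.3 to 362 ± 50.4 CPM. In short-term cells it averaged 245 and 317 CPM (log2 fold change 0.37, adjusted p = 0.0501; called by DESeq2, 0.0327). The phosphofructokinase genes PFKL, PFKM and PFKP were not called at either time, with log2 fold changes between -0.18 and 0.24.

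Further down the pathway, PGAM1, phosphoglycerate mutase, averaged 468 ± 13.6 CPM in short-term nontarget and 629 ± 28.8 CPM in short-term knockdown libraries and rose by 0.43 (log2, SE 0.09, adjusted p = 0.00377). Its long-term means were 657 and 581 CPM (log2 fold change -0.18, adjusted p = 0.14). PKM, pyruvate kinase, rose in long-term cells by 0.28 (log2, SE 0.10, adjusted p = 0.0349), from 4088 ± 238 to 4975 ± 358 CPM. This call was lost without long-term FLCN knockdown replicate 1 or 3 or long-term nontarget replicate 1 or 2 (adjusted p 0.0914 to 0.115). PGK1, phosphoglycerate kinase, was not called in long-term cells (log2 fold change 0.22, adjusted p = 0.0783), and with the replicate number as a block (adjusted p = 0.0230) or under DESeq2 (0.0346) it was. ALDOA, TPI1 and GAPDH were not called with knockdown by edgeR, and DESeq2 called GAPDH higher in short-term cells (adjusted p = 0.0258). GAPDH, often used as a reference, averaged 5423 and 6398 CPM in the short-term and 5172 and 5746 CPM in the long-term groups, nontarget first. ALDOC had 9 counts in all libraries.

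The PFKFB enzymes set the level of fructose 2,6-bisphosphate, an activator of phosphofructokinase. PFKFB3 averaged 105 ± 9.50 CPM in short-term nontarget and 168 ± 21.9 CPM in short-term knockdown libraries, and rose by 0.67 (log2, SE 0.12, adjusted p = 0.00134). In long-term cells its means were 149 and 165 CPM (log2 fold change 0.14, adjusted p = 0.412). PFKFB2 went the other way in short-term cells, from 27.0 ± 1.94 to 18.0 ± 4.02 CPM, and fell by 0.57 on the log2 scale (SE 0.16, adjusted p = 0.0287); the call was lost without short-term FLCN knockdown replicate 1 or 3 or any 1 short-term nontarget replicate (adjusted p 0.0505 to 0.110). PFKFB4 rose in long-term cells from 8.93 ± 0.543 to 14.7 ± 2.10 CPM, by 0.71 on the log2 scale (SE 0.20, adjusted p = 0.0134), a call lost without long-term nontarget replicate 2 (0.0531).

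LDHA, which makes lactate from pyruvate (chr11:18394388-18408425, + strand), was at 1962, 1998 and 1929 CPM in short-term nontarget and 2565, 2633 and 2129 CPM in short-term knockdown libraries. In long-term cells it was at 2536, 2425 and 2272 CPM in nontarget and 2919, 2397 and 2442 CPM in knockdown libraries. The short-term groups were apart and the long-term groups overlapped. LDHA was not called in either (log2 fold change 0.32, SE 0.11, adjusted p = 0.0677, and 0.10, SE 0.11, adjusted p = 0.518). Across the 8 genes of lactate and pyruvate, edgeR called 0 higher or lower with short-term knockdown. Among all genes 5.62% were higher and 4.71% lower, so 0 of 8 was near the background. At an unadjusted p below 0.05, 1 of the 8 was higher and 0 lower, and DESeq2 called 1 higher, LDHA.

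In long-term cells 2 of these 8 genes rose (25%) and 1 fell (12.5%), beside 13.7% higher and 15.8% lower among all genes, shares that are not a result about these genes. PDHA1, the catalytic E1 subunit of pyruvate dehydrogenase, rose by 0.36 (log2, SE 0.09, adjusted p = 0.00785), from 193 ± 15.5 to 247 ± 15.0 CPM. PDK3, a kinase that inhibits that enzyme, rose by 0.50 (SE 0.17, adjusted p = 0.0338), from 11.5 ± 2.19 to 16.2 ± 0.0615 CPM; the call was lost without any 1 of the 3 long-term FLCN knockdown replicates or long-term nontarget replicate 2 or 3 (adjusted p 0.0537 to 0.159) and under DESeq2 (0.0616). SLC16A1, the lactate transporter MCT1, fell by 0.40 on the log2 scale (SE 0.10, adjusted p = 0.00422), from 198 ± 16.8 to 150 ± 9.41 CPM. SLC16A3, the lactate exporter MCT4, was not called with knockdown at either time (log2 fold changes 0.09 and 0.20), and LDHB, PDK1 and PDHB were not either.

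Among the 14 other HIF targets, of which 12 were tested, 5 rose with short-term knockdown (BNIP3, ADM, NDRG1, KDM3A and BHLHE40; 41.7%, beside 5.62% of all genes). With long-term knockdown 2 rose (KDM3A and BHLHE40) and 6 fell (VEGFA, ADM, NDRG1, ANKRD37, P4HA2 and ERO1A). Of the 12, 16.7% were thus higher and 50% lower in long-term cells, beside 13.7% and 15.8% of all genes, so the share that rose was near the background. ADM encodes the vasodilator peptide adrenomedullin (chr11:10304680-10307397, + strand). It was at 11.2, 9.87 and 10.5 CPM in short-term nontarget, 14.0, 14.8 and 21.1 CPM in short-term knockdown, 13.7, 16.0 and 18.8 CPM in long-term nontarget, and 1.04, 1.03 and 1.19 CPM in long-term knockdown libraries. The long-term knockdown libraries were all far below the other 9, and the short-term groups were apart in the other direction. ADM fell in long-term cells by 3.88 on the log2 scale (SE 0.26, adjusted p = 6.38e-09). The short-term rise was 0.64 (log2, SE 0.18, adjusted p = 0.0296) and was lost without short-term FLCN knockdown replicate 3 or any 1 short-term nontarget replicate (adjusted p 0.0708 to 0.143). The 40 nearest genes had medians of -0.13 and -0.06, so the long-term fall was not shared by them.

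NDRG1, a stress-response gene induced by hypoxia, was at 29.1, 33.1 and 28.9 CPM in short-term nontarget, 71.6, 74.3 and 83.2 CPM in short-term knockdown, 48.6, 58.4 and 84.5 CPM in long-term nontarget and 37.4, 33.0 and 46.5 CPM in long-term knockdown libraries. Knockdown libraries were all above nontarget libraries in short-term and all below in long-term cells. NDRG1 rose 2.51-fold in short-term cells (log2 fold change 1.33, SE 0.17, adjusted p = 9.3e-05) and fell by 0.72 on the log2 scale in long-term cells (SE 0.17, adjusted p = 0.00401). Without long-term nontarget replicate 3, the highest of its group, the long-term log2 fold change was -0.47 (adjusted p = 0.0259).

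ANKRD37, a small ankyrin-repeat gene (chr4:185396021-185400628, + strand), was at 2.60, 2.58 and 3.61 CPM in short-term nontarget, 2.28, 3.80 and 3.01 CPM in short-term knockdown, 3.62, 2.94 and 3.62 CPM in long-term nontarget and 1.62, 0.880 and 1.87 CPM in long-term knockdown libraries. The long-term knockdown libraries were below all others. It fell in long-term cells by 1.22 on the log2 scale (SE 0.32, adjusted p = 0.00815), and its 40 nearest tested genes had a median log2 fold change of -1.05 there. Genes around ANKRD37 were thus lower to a like extent, and the part of the neighbourhood in the result was not tested. ANKRD37 rests on 225 counts and overlaps UFSP2 on the other strand.

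BHLHE40, a transcriptional repressor linked to the circadian clock and hypoxia, averaged 64.1 ± 2.13 CPM in short-term nontarget, 99.4 ± 13.1 CPM in short-term knockdown, 105 ± 7.35 CPM in long-term nontarget and 137 ± 8.38 CPM in long-term knockdown libraries (SD, n = 3). It rose by 0.63 (log2, SE 0.11, adjusted p = 0.00098) and 0.37 (SE 0.11, adjusted p = 0.0122); the second was lost without long-term FLCN knockdown replicate 1 (0.0549). KDM3A, a histone H3 lysine demethylase, rose by 0.76 (SE 0.13, adjusted p = 0.00106) and 0.71 (SE 0.13, adjusted p = 0.000519), with means of 39.0 and 66.1 CPM in short-term and 40.9 and 66.6 CPM in long-term cells. The 40 genes nearest to KDM3A on chromosome 2 had medians of 0.37 and 0.57 in the same comparisons. BNIP3, a mitophagy receptor, averaged 95.7 ± 8.32 CPM in short-term nontarget and 134 ± 14.5 CPM in short-term knockdown libraries and rose by 0.49 (log2, SE 0.12, adjusted p = 0.0165; lost without short-term FLCN knockdown replicate 1 or 2 or short-term nontarget replicate 3, 0.0650 to 0.0881) and averaged 127 and 129 CPM in long-term cells.

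The remaining targets that fell in long-term cells changed less. VEGFA, the main angiogenic growth factor, fell by 0.39 on the log2 scale (SE 0.14, adjusted p = 0.0448), from 36.8 ± 3.82 to 28.3 ± 3.19 CPM; the call was lost without long-term FLCN knockdown replicate 1 or 2 or long-term nontarget replicate 2 or 3 (adjusted p 0.114 to 0.158). P4HA2, a collagen prolyl hydroxylase, fell by 0.45 (SE 0.11, adjusted p = 0.00422), from 56.2 ± 3.16 to 41.1 ± 0.661 CPM. ERO1A, an oxidase of protein folding, fell by 0.37 (SE 0.10, adjusted p = 0.0102), from 125 ± 11.2 to 97.0 ± 4.33 CPM, beside a median of -0.29 for its 40 neighbours on chromosome 14. BNIP3L, P4HA1 and MXI1 were not called with knockdown. CA9 and CA12, carbonic anhydrases that mark strong HIF activation, had 1 and 17 counts in all libraries together.

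The core of the HIF response element is ACGTG or GCGTG, and it was searched on both strands in promoter windows of 300 bases (250 before and 50 after each RefSeq start, GRCh38.p14). The table held 72 windows for 42 of the 49 members; BNIP3L, NDRG1, PFKFB2, SLC16A1, SLC2A3, VEGFA and VHL had none. ACGTG was found in at least 1 window of 24 of the 42 members (57.1%) and of 32.7% of the 10052 tested genes in the table, and either motif in 37 members (88.1%) and 70.8% of tested genes. Genes with several windows have more chances to match. Among genes with 1 window each the shares were 14 of 29 members (48.3%) and 28.0% of tested genes for ACGTG. A match describes letters only, and whether HIF binds there was not measured.

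The windows below show 2 members that rose in short-term and fell in long-term cells (ADM at chr11:10304823-10305122 and EPAS1 at chr2:46297157-46297456, both + strand), 2 that rose at both times (BHLHE40 at chr3:4979187-4979486, + strand, and ENO1 at chr1:8878637-8878936, - strand), ANKRD37 (chr4:185396591-185396890, + strand), and LDHA (chr11:18394313-18394612, + strand). LDHA was not called by edgeR, and DESeq2 called it higher in short-term cells (adjusted p = 0.0362). Capitals mark each core motif on either strand, so CACGTG, which reads the same on both strands, counts as 2 overlapping matches.
ADM: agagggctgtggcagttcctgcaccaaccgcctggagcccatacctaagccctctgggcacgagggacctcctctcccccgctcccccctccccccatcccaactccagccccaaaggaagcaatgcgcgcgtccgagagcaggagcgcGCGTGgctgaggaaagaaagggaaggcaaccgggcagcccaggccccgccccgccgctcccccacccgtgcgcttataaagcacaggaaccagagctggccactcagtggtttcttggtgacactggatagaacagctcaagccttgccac
EPAS1: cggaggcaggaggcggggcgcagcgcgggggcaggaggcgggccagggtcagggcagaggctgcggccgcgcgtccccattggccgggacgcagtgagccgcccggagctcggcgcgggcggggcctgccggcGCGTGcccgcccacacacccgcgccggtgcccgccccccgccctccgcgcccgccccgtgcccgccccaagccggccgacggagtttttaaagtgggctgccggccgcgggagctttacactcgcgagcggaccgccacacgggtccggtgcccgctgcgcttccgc
BHLHE40: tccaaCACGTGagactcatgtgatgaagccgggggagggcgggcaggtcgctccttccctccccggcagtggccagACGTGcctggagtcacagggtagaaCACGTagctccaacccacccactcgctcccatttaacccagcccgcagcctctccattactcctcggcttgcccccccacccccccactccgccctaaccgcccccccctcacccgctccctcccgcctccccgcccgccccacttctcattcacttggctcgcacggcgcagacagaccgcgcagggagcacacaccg
ENO1: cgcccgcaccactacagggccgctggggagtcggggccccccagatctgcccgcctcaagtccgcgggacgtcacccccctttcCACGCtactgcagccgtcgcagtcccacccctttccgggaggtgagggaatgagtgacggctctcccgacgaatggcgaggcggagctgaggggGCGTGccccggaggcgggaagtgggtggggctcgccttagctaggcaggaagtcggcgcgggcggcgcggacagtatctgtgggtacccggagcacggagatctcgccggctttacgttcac
ANKRD37: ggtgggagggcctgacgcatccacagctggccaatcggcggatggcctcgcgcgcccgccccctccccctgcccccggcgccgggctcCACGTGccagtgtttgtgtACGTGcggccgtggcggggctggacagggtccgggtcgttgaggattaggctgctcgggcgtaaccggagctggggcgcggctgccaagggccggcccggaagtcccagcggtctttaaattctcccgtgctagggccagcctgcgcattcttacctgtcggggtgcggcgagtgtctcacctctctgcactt
LDHA: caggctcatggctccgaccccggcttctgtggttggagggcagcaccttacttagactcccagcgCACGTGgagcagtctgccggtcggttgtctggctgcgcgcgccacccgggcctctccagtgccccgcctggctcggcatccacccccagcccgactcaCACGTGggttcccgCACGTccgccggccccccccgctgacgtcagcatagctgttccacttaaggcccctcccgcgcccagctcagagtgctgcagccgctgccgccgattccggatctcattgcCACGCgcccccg
ADM and EPAS1 each held 1 GCGTG and no ACGTG, BHLHE40 held 4 matches to ACGTG, ENO1 held 2 to GCGTG, ANKRD37 held 3 to ACGTG, and this LDHA window held 5 to ACGTG and 1 to GCGTG.

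Whether knockdown acted differently in long-term than in short-term cells was tested as an interaction of knockdown and time. Of the 45 members 10 were lower (22.2%), beside 8.43% lower and 4.98% higher among all genes tested. With edgeR 0 members were higher, 1 at an unadjusted p below 0.05 (PFKFB4) and 0 by DESeq2. The median of the members was -0.12, beside 0.00 for all genes. The 10 were HIF1A, EPAS1, SLC2A3, HK1, PGAM1, ENO2, PFKFB3, VEGFA, ADM and NDRG1. They spread over 5 of the 6 role groups: 2 HIF factors, 1 transporter, 3 enzymes, 1 PFKFB enzyme and 3 other targets. The largest differences were in ADM (log2 difference -4.53, SE 0.32, adjusted p = 3.42e-08), NDRG1 (-2.05, SE 0.24, adjusted p = 1.75e-05) and EPAS1 (-1.80, SE 0.25, adjusted p = 0.000102). SLC2A1, with a log2 difference of -0.71 (SE 0.25), was not called by edgeR (adjusted p = 0.079) and was by DESeq2 (0.0489). Calls were lost in some fits that left out 1 library for HIF1A (9 of 12, largest adjusted p 0.0814, with short-term nontarget replicate 2 left out), PFKFB3 (8 of 12, largest 0.116, with the same library left out) and VEGFA (without long-term FLCN knockdown replicate 1, short-term FLCN knockdown replicate 2 or short-term nontarget replicate 2, 0.0501 to 0.0562).

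Fewer members, and fewer of all genes tested, were called between nontarget cells of the 2 culture times than with knockdown at either time. Between short-term and long-term nontarget cells 6 of 45 rose (13.3%) and 1 fell (2.22%), beside 3.17% higher and 4.38% lower among all genes tested; the median of the members was 0.11. NDRG1 rose by 1.07 (log2, SE 0.17, adjusted p = 0.000742), BHLHE40 by 0.72 (SE 0.11, adjusted p = 0.000394), EPAS1 by 0.64 (SE 0.17, adjusted p = 0.0331), ADM by 0.61 (SE 0.18, adjusted p = 0.0461), PFKFB3 by 0.50 (SE 0.12, adjusted p = 0.0138) and PGAM1 by 0.49 (SE 0.09, adjusted p = 0.00155). P4HA2 fell by 0.36 on the log2 scale (SE 0.11, adjusted p = 0.0489). The calls for EPAS1 and ADM were each lost without long-term nontarget replicate 2 or 3 or any 1 short-term nontarget replicate (adjusted p up to 0.141 and 0.210), that for P4HA2 without any 1 long-term nontarget replicate or short-term nontarget replicate 1 or 3 (up to 0.227), and that for PFKFB3 without long-term nontarget replicate 2 or 3 or short-term nontarget replicate 1 or 2 (up to 0.0809). By DESeq2 ADM was not called (adjusted p = 0.0860) and BNIP3 was (0.0372). The count of members that rose was 3 without long-term nontarget replicate 2, short-term nontarget replicate 1 or short-term nontarget replicate 2. Among all genes those that rose went from 443 to 309, 224 and 249 in these fits.

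Between short-term and long-term knockdown cells 7 members rose (15.6%) and 13 fell (28.9%), beside 11.5% higher and 15.2% lower among all genes. The 13 were ADM (-3.91), EGLN3 (-1.88), EPAS1 (-1.16), ANKRD37 (-1.04), NDRG1 (-0.97), ENO2 (-0.88), SLC2A3 (-0.81), P4HA2 (-0.79), VEGFA (-0.51), HK1 (-0.49), HIF1A (-0.40), ENO1 (-0.32) and ERO1A (-0.29), as log2 fold changes. PFKFB4 (0.66), SLC16A3 (0.55), BHLHE40 (0.46), MXI1 (0.46), P4HA1 (0.31), PDHA1 (0.27) and TPI1 (0.26) rose. For SLC16A3, on chromosome 17, the 40 nearest genes had a median of 0.57 in the same comparison, and their part in the result was not tested. With the replicate number as a block, SLC2A1 (log2 fold change -0.50, adjusted p = 0.000188; also called by DESeq2, 0.0373) and PDK3 (0.44, adjusted p = 0.0280) were called as well. The count of members that rose went from 7 to between 2 and 5 when 1 library was left out: 2 without short-term FLCN knockdown replicate 1, and 3 without short-term FLCN knockdown replicate 2 or 3 or long-term FLCN knockdown replicate 1 or 3. Among all genes those that rose went from 1601 to 1194, 1321, 1338, 1097 and 1626 in these fits, in the same order. Among those that fell, the call was lost for ANKRD37 without long-term FLCN knockdown replicate 1 or 2 or short-term FLCN knockdown replicate 2 or 3 (adjusted p 0.0519 to 0.124), for ENO1 without long-term FLCN knockdown replicate 2 or short-term FLCN knockdown replicate 1 (0.0647 to 0.113), for VEGFA without long-term FLCN knockdown replicate 1 or short-term FLCN knockdown replicate 2 (0.0534 to 0.0546), and for ERO1A in every such fit except that without short-term FLCN knockdown replicate 3 (up to 0.194). Among those that rose, it was lost for SLC16A3 without long-term FLCN knockdown replicate 3 or short-term FLCN knockdown replicate 1 or 2 (0.112 to 0.146, with a log2 fold change of 0.32 without the first of these), for PFKFB4 without long-term FLCN knockdown replicate 3 or short-term FLCN knockdown replicate 1 or 3 (0.0723 to 0.0987), for P4HA1 and TPI1 in every fit except that without long-term FLCN knockdown replicate 2, for PDHA1 in every fit except that without long-term FLCN knockdown replicate 3, and for MXI1 in all 6; DESeq2 did not call ANKRD37 (adjusted p = 0.0677) or MXI1 (0.0538). These comparisons share libraries with the knockdown comparisons above and are not independent of them.

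Where 2 or 3 members catalyse one step or share one role, their balance was compared per kilobase of exon within each library, as a description. The length takes in every annotated exon (6210 bases for LDHA and 2983 for LDHB), so the absolute shares depend on the annotation. LDHA made up 31.7% ± 0.6 of LDHA plus LDHB in short-term nontarget cells, 37.4% ± 2.2 with short-term knockdown, 36.3% ± 2.1 in long-term nontarget cells and 40.1% ± 3.0 with long-term knockdown (SD, n = 3). EPAS1 made up 25% ± 1.5, 40.3% ± 6.2, 33.5% ± 4.9 and 28.6% ± 7.2 of EPAS1 plus HIF1A in the same order of groups. The hexokinase gene HK2 made up 10.5% ± 2.0, 9.1% ± 1.4, 8.7% ± 0.7 and 13.5% ± 1.7 of HK1 plus HK2. SLC16A3 made up 36.8% ± 0.2, 39.0% ± 4.7, 41.1% ± 5.3 and 51.2% ± 6.6 of both lactate transporters. With 3 libraries against 3, an exact permutation test could not give a p below 0.10, and none was run. PFKP was 66.7% to 72.5% of the phosphofructokinases by group mean, ALDOA close to all of the aldolases, and ENO1 98.6% to 99.0% of both enolases.

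**Figure D3:**
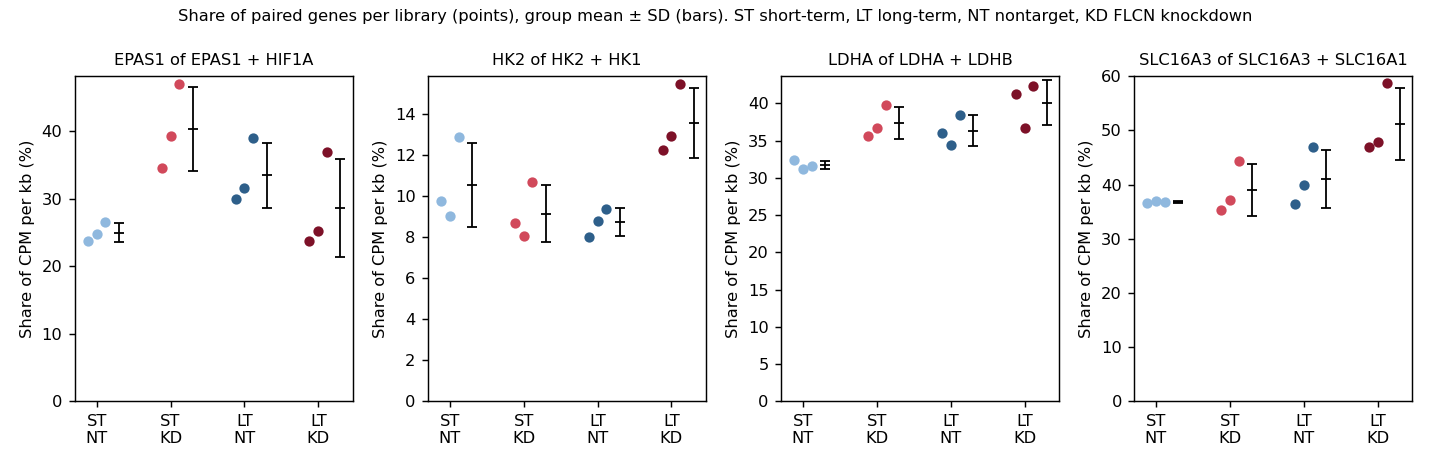
Share of 1 gene within a pair, in percent of the pair's CPM per kilobase of exon, in each library (points) with the group mean and SD (bars, 3 libraries), for short-term (ST) and long-term (LT) nontarget (NT) and knockdown (KD) cells. The LDHA share is lowest in short-term nontarget cells (31.7%) and the HK2 gene's share is highest in long-term knockdown cells (13.5%).

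Further genes of the same pathways, taken from lists of names, were counted beside the members, and their shares are to be read against 5.62% higher and 4.71% lower among all genes in short-term and 13.7% and 15.8% in long-term cells. Of 27 tested further glycolysis and gluconeogenesis genes, 1 rose and 2 fell with short-term knockdown, (3.70% and 7.41%), and 2 rose and 6 fell with long-term knockdown (7.41% and 22.2%), shares near the background; in long-term cells, of those averaging 50 counts or more, those that changed most included the hexokinase-like gene HKDC1 (log2 fold change -0.92, adjusted p = 8.2e-05), PGM2 (-0.75, 0.00019) and the dehydrogenase subunit DLD (0.55, 0.0013). Of 7 pentose phosphate pathway genes, 1 rose with short-term knockdown (RPE, 0.57) and 2 with long-term knockdown (RPIA, 0.50, and TALDO1, 0.30). Of 12 further regulators of HIF, 1 rose and 1 fell at each time, and SKP2, a ubiquitin ligase subunit, was the one that rose (0.54 and 0.51 on the log2 scale). The one that fell was ARNT2, an alternative partner of the alpha subunits, by 1.73 on the log2 scale in short-term cells (SE 0.50, adjusted p = 0.0331) and by 2.5 in long-term cells (SE 0.27, adjusted p = 2.04e-06); it rests on 388 counts over all libraries, under the limit of 50 per library for naming, and was named after its values were seen. Of 27 further HIF targets, 4 rose and 2 fell with short-term knockdown (14.8% and 7.41%), led among genes averaging 50 counts or more by HMOX1 (heme oxygenase 1, log2 fold change 1.75) and STC2 (0.96), and 6 rose and 5 fell with long-term knockdown (22.2% and 18.5%), led within the same limit by HMOX1 (1.27), the collagen cross-linking enzyme LOX (1.25) and TMEM45A (-0.80). Below that limit ANGPTL4, named after its values were seen, fell in short-term cells by 1.22 on the log2 scale (SE 0.35, adjusted p = 0.0382) and was not called in long-term cells (-0.82, adjusted p = 0.294).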

How the data were processed

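Poly(A) RNA of 12 HK2 cell libraries, 3 in each of 4 groups set by the labels, had been made into TruSeq libraries and sequenced. The authors trimmed reads with fastp, mapped them with STAR, counted them per gene with featureCounts and tested with DESeq2, on GRCh38 per the labels; versions, annotation release and strand setting are not given in the sources used here. The deposited values used are raw counts; the per-library files differed from the table in 0 counts, and 12 columns of normalized values were not used.

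The 49 members and all gene lists were chosen with earlier results of these data known. IDs were matched to GENCODE release 29, and 55619 of 58288 had the same version; coordinates are printed for those. Counts were fitted in R 4.3.3 with edgeR 4.0.16 (filterByExpr, TMM, robust glmQLFit on all 12 libraries with a term per group, prior count 2, two-sided glmQLFTest), which kept 13959 genes and 99.8% of counts. SE is the absolute log2 fold change divided by the square root of F. CPM uses the TMM-scaled library size. CPM per kilobase divides by the length of all annotated exons of a gene together, so levels compared between genes depend on the annotation. Every member was eligible to be named; values in each library are given for HIF1A, EPAS1, ARNT, VHL, the SLC2A genes, LDHA and each member called with an absolute log2 fold change of at least 1 (ENO1 was added after its values were seen). Genes of other lists were named from the largest changes called, with a mean of at least 50 counts. A simulated data set tested the script.

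Same-numbered libraries deviated together from their group means over genes in long-term knockdown (r = 0.284, 0.123 and 0.458) and in ageing of knockdown cells (0.223, 0.292 and 0.455), so there the replicate block is reported where it changes a call; the labels do not say what a number marks. In short-term knockdown (0.0172, 0.111 and 0.0540) and ageing of nontarget cells it did not hold for every pair. Alternatives were other scaling factors, DESeq2 1.42.0, other filters, the block, only the groups compared, each library left out, and a fold limit of 1.5. Replicates differed beyond counting noise (chi-square per degree of freedom 2.15 to 13.0). Of the members, 17 have pseudogenes named after them, none with over 1% of the gene's counts, and 37 overlap another gene on either strand.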

Additional observations from a re-analysis of the deposited data

Results flagged for a closer look

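For 10 members the effect of knockdown differed between long-term and short-term cells by the interaction test in edgeR, all in the direction of a lower effect in long-term cells (22.2% of the 45 tested, beside 8.43% lower and 4.98% higher among all genes). As long-term minus short-term log2 fold changes, the differences were -4.53 for ADM, -2.05 for NDRG1, -1.80 for EPAS1, -0.96 for SLC2A3, -0.95 for ENO2, -0.73 for VEGFA, -0.60 for PGAM1, -0.60 for HK1, -0.53 for PFKFB3 and -0.45 for HIF1A. For ADM, NDRG1, EPAS1 and SLC2A3 the 2 effects had opposite signs and both were called. For ENO2, HK1, PGAM1 and PFKFB3 the short-term effect alone was called, and for HIF1A and VEGFA the long-term effect alone. Calls for HIF1A and PFKFB3 were lost in 9 and 8 of the 12 fits that left out 1 library (largest adjusted p 0.0814 and 0.116, both without short-term nontarget replicate 2), and that for VEGFA in 3 (largest 0.0562, also without short-term nontarget replicate 2). The other 7 kept their calls in all 12. Each group holds 3 libraries, too few for a test of single outlying libraries.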

How the results depend on the processing

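Of the 72 calls of single members over the 5 comparisons, 10 of 15 held in every fit that left out 1 library for short-term knockdown, 12 of 20 for long-term knockdown, 3 of 7 for ageing in nontarget cells, 10 of 20 for ageing in knockdown cells and 7 of 10 for the interaction; no call changed direction under any alternative. Medians of the members moved by less than the spread between libraries under RLE factors and DESeq2.

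At a fold change of at least 1.5, counts were 0 lower in short-term knockdown, 3 higher and 4 lower in long-term knockdown, 0 lower in ageing of nontarget cells, and 1 higher and 8 lower in ageing of knockdown cells. All genes were not counted at this limit. With only the groups compared, ageing in nontarget cells gave 10 higher and 0 lower, and ageing in knockdown cells 2 higher. With no filter on low counts, 0 were lower in ageing of nontarget cells, beside 709 of all 26652 genes in that fit. With the replicate block, 12 were higher in ageing of nontarget cells and 17 lower in the interaction, where numbers were not shown to pair the samples. The block raised calls among all genes too, from 443 to 795 higher in ageing of nontarget cells and from 1177 to 1681 lower in the interaction. Among the 7 members added to the interaction, SLC2A1 went from an adjusted p of 0.0790 to 0.000425. In short-term knockdown, also not shown to be paired, the block added EGLN1 (adjusted p = 0.00271), LDHA (0.00832), GPI (0.0140) and GAPDH (0.0284). In long-term knockdown and ageing of knockdown cells the block changed the calls of PGK1, SLC2A1 and PDK3 named beside the results and no other. With the libraries numbered 1 and 2 alone, chosen after seeing the data, 0 were lower in short-term knockdown and 0 in ageing of nontarget cells. Of all 14083 genes in that fit 881 and 911 were lower. Leaving out 1 library at a time gave 10 to 13 higher and 0 to 1 lower in short-term knockdown, 6 to 9 higher and 8 to 10 lower in long-term knockdown, 3 to 6 higher and 0 to 1 lower in ageing of nontarget cells, 2 to 5 higher and 10 to 13 lower in ageing of knockdown cells, and 0 to 1 higher and 7 to 13 lower in the interaction. All genes called moved in these fits too, for example 471 to 683 higher in short-term knockdown (784 with all libraries). The cause of these moves was not tested beyond the smaller number of libraries. EGLN3, ANKRD37 and SLC2A2 rest on 351, 225 and 46 counts over all libraries, which limits the precision of their values.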
